A study of Ovis aries with 30 samples.

Results

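The comparison described here is that of adult sheep kidney with sheep kidney at 10 weeks of age, counted from birth, 5 arrays a side out of 30 in the series, chosen by the tissue and age that the sample titles give. All 9155 genes that had a probe set with a single gene symbol entered it, each represented by the probe set with the highest mean over the 30 arrays. The series, whose title asks how fast a genetic program that regulates growth runs in relation to adult body size, measured kidney and lung of sheep (Ovis aries) at fetal day 90, at 10 weeks and in adults, with 5 arrays in each of the 6 groups. RNA of frozen tissue was hybridised to an Affymetrix bovine array, so each value is the log2 signal of bovine probes with sheep RNA. The labels give no treatment, genotype, breed, sex or adult age, and they call the 5 samples of a group biological replications. Whether the number in a title marks an animal is not stated.

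The nephrons of the sheep are formed before birth, and the kidney then enlarges as the cells of existing tubules, vessels and stroma divide, grow and lay down matrix, until growth slows and stops in the adult. Cells that enter mitosis switch on a shared set of genes for cyclins, chromosome segregation and the spindle, which are off in resting cells. Imprinted genes and the insulin-like growth factor axis are known for regulating growth before and shortly after birth. Fibrillar collagens and their chaperones are made by the stromal cells of a growing organ. In whole tissue, fewer cells of a type and less RNA per cell cannot be told apart, so a change below is a change of the level in kidney RNA.

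From 10 weeks to adulthood 164 genes fell (1.79% of those tested) and 136 rose (1.49%), by limma on the 15 kidney arrays with the threshold at an adjusted p of 0.05. The fetal kidney arrays varied less between themselves than those of the later ages (median variance over genes 0.0199, against 0.0341 at 10 weeks and 0.0349 in adults) and lowered the shared estimate of the spread. Without 10-week array 9 the rises numbered 89. With only the 10 arrays compared, 85 genes fell (0.928%) and 73 rose (0.797%). Of these 158, 154 were among the 300. All 5 adult arrays lay above or below all 5 10-week arrays in 350 genes (3.82%), and 212 of the 300 were of this kind, 122 lower and 90 higher in adults. The called changes were moderate in size, with a median of 0.67 log2, and 31 genes fell and 28 rose at least 2-fold. Each call of a gene named in these results held in the fits of 10 and of 30 arrays and when any 1 of the 10 arrays was left out, except where an adjusted p above 0.05 is given for it.

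Kidney markers were bright at both ages, with an exception. UMOD, the uromodulin gene of the thick ascending limb, averaged 12.87 at 10 weeks and 13.13 in adults, and SLC22A6, the organic anion transporter of the proximal tubule, 11.68 and 11.22, whereas the lung surfactant genes SFTPB and SFTPC averaged 7.07 and 6.92, and 5.65 and 5.59. SLC12A1, the salt transporter of the loop of Henle, read only 4.16 and 4.06 with these bovine probes. Adult array AD-444 stood apart from the rest. It had the lowest median signal (6.57, against 6.62 to 6.72 in the other 9 arrays), the highest score on the first principal component (32.2, against −16.7 to 10.1) and the lowest means of the oxidative phosphorylation list (11.50, against 11.78 to 11.998) and of the ribosomal protein list (12.92, against 13.07 to 13.22). Without it 290 genes were called, 157 lower and 133 higher, and 249 of them were among the 300.

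**Figure D1:**
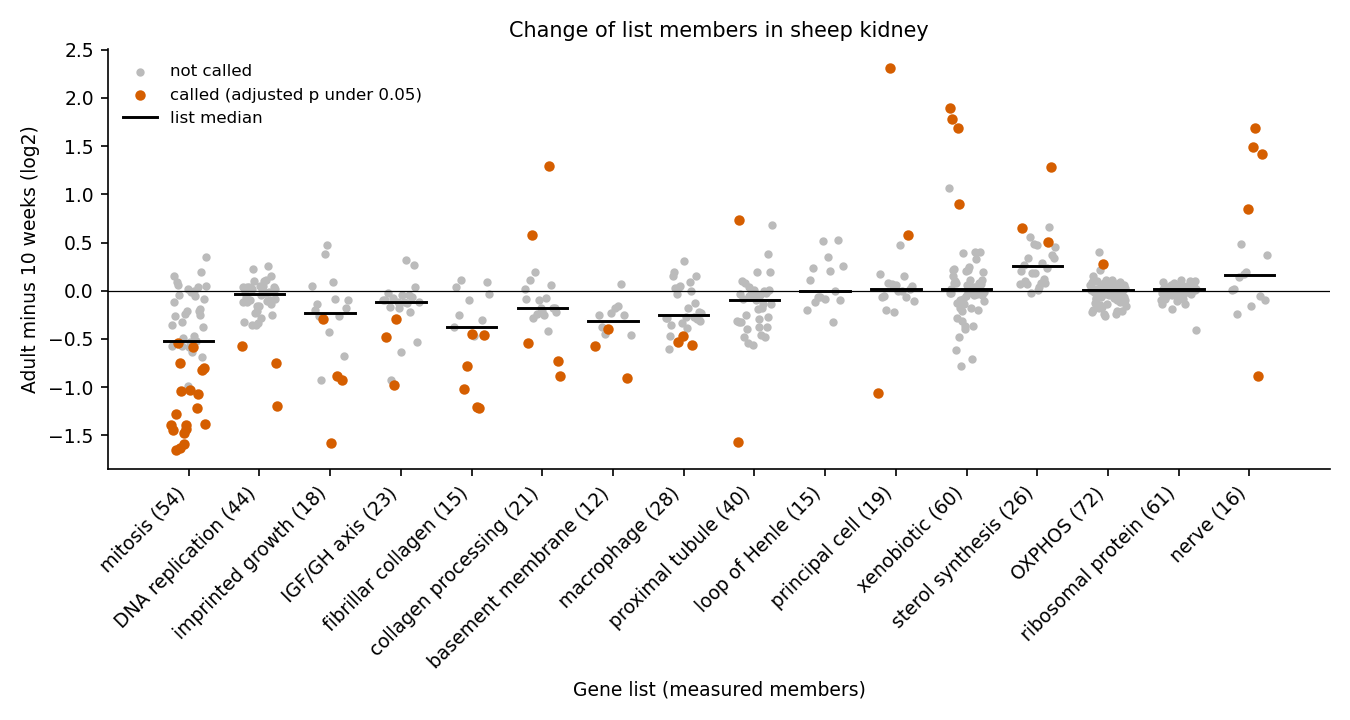
Change from 10 weeks to adulthood (adult minus 10 weeks, log2) of every measured member of 16 gene lists in sheep kidney. Orange points passed the threshold, grey points did not, black lines are list medians and the number of measured members is in brackets. The mitosis list lies lowest, with a median of −0.53, and the sterol synthesis list highest, with a median of 0.25.

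Genes of cell division gave the most falls by count of the 46 lists counted, while the share that fell was largest in the fibrillar collagens (40%). Of 54 measured genes of the mitotic spindle and cyclins 19 fell and 0 rose, and 16 fell with the 10 arrays alone and 15 with all 30. The share that fell, 35.2%, stands beside 1.79% of all genes. Their median change was −0.53, against −0.01 over all genes tested, and 46 of the 54 changes were below zero. In 23 of the 54 every adult array lay below every 10-week array, and in 0 every adult array lay above. Among all 9155 genes, 350 (3.82%) had all adult arrays above or below all 10-week arrays. That share counts both directions, and a share for the lower direction alone is not given. The mean of the list was 6.84, 6.68, 6.28, 6.43 and 6.27 in 10-week arrays 7, 8, 9, 10 and 11, and 5.89, 5.92, 5.92, 5.92 and 5.95 in adult arrays AD-432, AD-434, AD-441, AD-442 and AD-444. The adults were thus nearly equal, while arrays 7 and 8 were the highest at 10 weeks. The adult level was low, below the mean of 6 lung marker genes in the adult kidney arrays (6.08 to 6.33). Whether the low end of the signal bounds the adult values was not tested. Even the lowest 10-week arrays, 9 and 11, each had 30 of the 54 members above all 5 adult arrays, and array 7 had 39. The share of all genes for which a single 10-week array lay above all 5 adult arrays was not counted. In fetal kidney the list averaged 7.82. The count of 19 was the same without adult array AD-444.

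Values per array below keep this order of arrays, and a change is the adult minus the 10-week mean ± its standard error in the limma fit, with 5 arrays a side. Cyclin B1 (CCNB1), the partner with which CDK1 drives entry into mitosis, read 8.69, 7.90, 6.88, 7.69 and 7.31 at 10 weeks and 5.96, 6.09, 6.30, 5.90 and 5.99 in adults. The ages did not overlap, and CCNB1 fell by 1.65 ± 0.23 log2, or 3.14-fold (adjusted p = 7.63e-04). CDK1 itself read 7.21, 6.96, 6.59, 6.00 and 6.11 at 10 weeks and 5.28, 5.64, 5.50, 5.36 and 5.88 in adults. It fell by 1.04 ± 0.19 log2, or 2.06-fold (adjusted p = 0.00542), with array AD-444 the highest adult and arrays 10 and 11 the lowest at 10 weeks. Cyclin B2 (CCNB2) read 7.77, 7.42, 6.79, 7.50 and 6.77 at 10 weeks and 5.88, 6.37, 6.10, 5.46 and 6.02 in adults, and fell by 1.28 ± 0.19 log2, or 2.43-fold (adjusted p = 0.00106). CKS2, a small subunit that binds cyclin-dependent kinases, was the brightest of this group. It read 10.86, 10.49, 9.63, 10.20 and 9.37 at 10 weeks and 8.51, 8.66, 8.77, 8.76 and 8.66 in adults. CKS2 fell by 1.44 ± 0.20 log2, or 2.71-fold (adjusted p = 7.95e-04), and its 5 adult arrays were all close to their mean of 8.67.

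Genes of later steps of division also fell. CDCA8, the borealin subunit of the chromosomal passenger complex, read 7.37, 6.85, 5.94, 6.58 and 6.13 at 10 weeks and 4.66, 5.02, 5.12, 5.05 and 4.84 in adults. It fell by 1.64 ± 0.20 log2, or 3.11-fold (adjusted p = 1.97e-04). BIRC5, the survivin subunit of that complex, read 7.39, 7.38, 6.21, 6.62 and 6.17 at 10 weeks and 5.30, 5.72, 5.08, 5.35 and 5.11 in adults, and fell by 1.44 ± 0.23 log2, or 2.72-fold (adjusted p = 0.00191). UBE2C, the ubiquitin-conjugating enzyme that works with the anaphase-promoting complex, read 8.61, 8.14, 7.57, 8.03 and 7.35 at 10 weeks and 6.53, 6.67, 6.59, 6.76 and 6.26 in adults. It fell by 1.38 ± 0.18 log2, or 2.60-fold (adjusted p = 3.67e-04). CIT, the citron kinase of the cleavage furrow, read 8.84, 8.96, 7.99, 8.35 and 7.95 at 10 weeks and 6.88, 6.78, 6.63, 6.23 and 7.61 in adults, with array AD-444 the highest adult. CIT fell by 1.59 ± 0.23 log2, or 3.01-fold (adjusted p = 0.00109). In each of these 4 genes the highest adult array stayed below the lowest 10-week array.

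The other called members, with their log2 changes, were the spindle protein genes CKAP2 (−1.48), ASPM (−1.39), TPX2 (−0.81) and NUSAP1 (−1.07), the cytokinesis factors ECT2 (−1.39) and KIF20A (−1.03), the kinetochore genes NDC80 (−1.21) and SPC24 (−0.82), the checkpoint and anaphase genes CDC20 (−0.54) and MAD2L1 (−0.58) and the mitotic entry gene CDCA3 (−0.75). With the 10 arrays alone NUSAP1 and MAD2L1 missed the threshold (adjusted p = 0.0621 and 0.0624), and with all 30 arrays CDC20, CDCA3, MAD2L1 and SPC24 did (adjusted p = 0.122, 0.159, 0.124 and 0.225). Without 10-week array 7 the calls of MAD2L1 and NUSAP1 ended (adjusted p = 0.0511 and 0.0604), and without adult array AD-442 that of NUSAP1 (adjusted p = 0.0525). Dimmer second probe sets of CDCA8, ASPM and ECT2 read 4.93 and 4.97, 4.92 and 4.78, and 4.90 and 4.61 at 10 weeks and in adults. MKI67 and TOP2A, usual markers of dividing cells, had no probe set with their symbol among the genes tested. Outside the list, STMN1, the microtubule-destabilising stathmin, read 12.01, 12.20, 11.40, 11.74 and 11.30 at 10 weeks and 10.40, 10.34, 10.38, 10.26 and 10.79 in adults, and fell by 1.30 ± 0.15 log2, or 2.46-fold (adjusted p = 1.27e-04). PCLAF, which binds the replication clamp, fell by 1.29 ± 0.25 log2, or 2.45-fold (adjusted p = 0.00681), from a mean of 8.24 to 6.94. In the fit of the 10 arrays alone the call of ASPM (0.0712) missed the threshold (adjusted p in brackets).

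**Figure D2:**
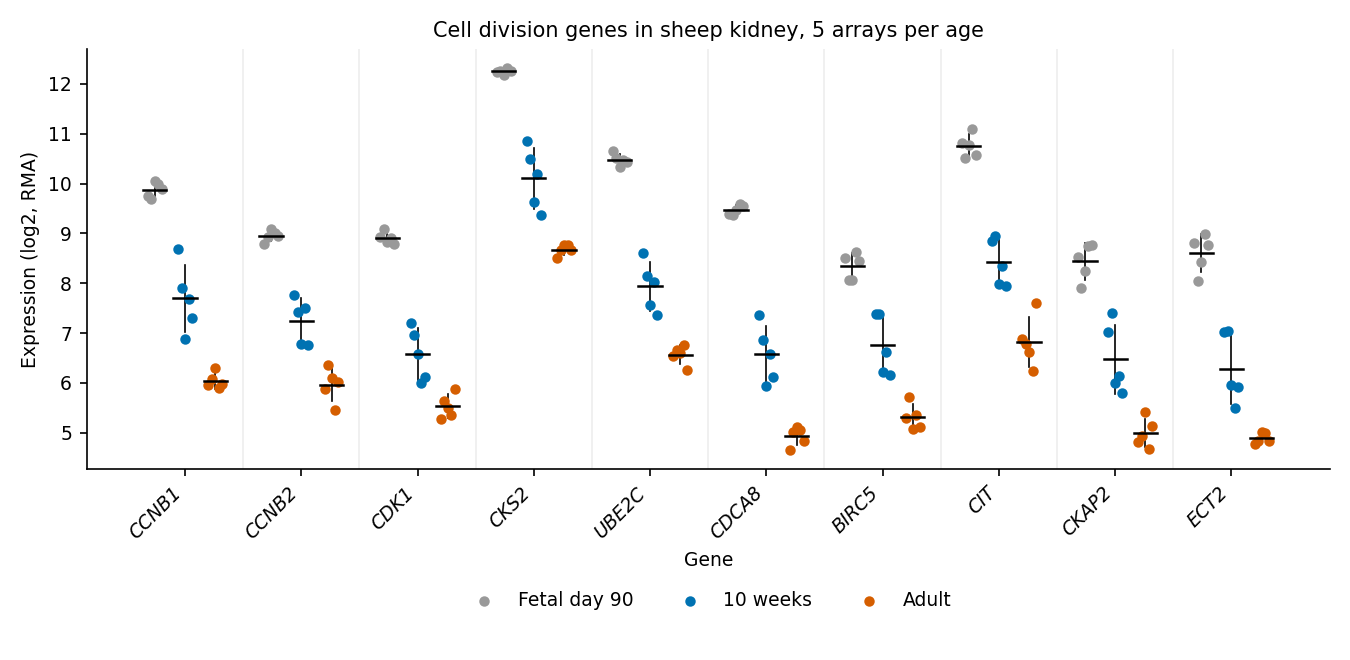
Log2 expression of 10 cell division genes in the 5 kidney arrays of each age (grey fetal day 90, blue 10 weeks, orange adult), with the mean (bar) and SD (line). Levels at 10 weeks lie between the fetal and adult levels, and for all 10 genes the 10-week and adult arrays do not overlap. The 10 were picked from the called members of the list. Of its 54 genes 23 had every adult array below every 10-week array.

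Of 44 measured DNA replication genes 3 fell (6.82%, against 1.79% of all genes) and 0 rose, with a median change of −0.03, and only TYMS fell with the 10 arrays alone. Leaving out 10-week array 7 or 8, or adult array AD-432, AD-434 or AD-442, also left 1 fall. TYMS, the thymidylate synthase that supplies thymidine nucleotides, read 7.18, 7.27, 6.76, 6.89 and 6.98 at 10 weeks and 6.31, 6.19, 6.4, 6.05 and 6.38 in adults. It fell by 0.75 ± 0.13 log2, or 1.68-fold (adjusted p = 0.00279), without overlap of the ages. A second TYMS probe set, nearly as bright, averaged 6.67 and 6.05. UHRF1, which keeps DNA methylation through replication, fell by 1.2 ± 0.28 (adjusted p = 0.0280), and the histone chaperone ASF1B fell by 0.57 ± 0.15 (adjusted p = 0.0416). The helicase subunits MCM3, MCM4, MCM5, MCM6 and MCM7 changed by −0.24, −0.35, −0.16, −0.21 and −0.33, all short of the threshold (smallest adjusted p = 0.0533, for MCM4). Cell cycle inhibitors, 13 measured, gave 0 calls by limma with the 15 arrays or the 10, 3 of them had an unadjusted p under 0.05 in each, and their median was 0.07. How many of all genes had an unadjusted p under 0.05 was not counted. Adjusted p was above 0.05 in the fit of only the 10 arrays for UHRF1 (0.101) and ASF1B (0.0963), and fitting all 30 arrays ended the call of ASF1B (0.459), with the adjusted p in brackets. Leaving out 1 array ended calls too, for UHRF1 without 10-week arrays 7, 8 or 9 or adult arrays AD-432, AD-434, AD-441 or AD-442 (0.0507 to 0.0744), for ASF1B without 10-week arrays 7, 8, 9, 10 or 11 or adult arrays AD-432, AD-434 or AD-442 (0.0530 to 0.101). Further calls ended for ASF1B (0.264) with the mean of a gene's probe sets, for ASF1B (0.0694) with arrays centred on their medians, for ASF1B (0.0647) with repeated quantile normalization.

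Of 18 measured imprinted growth genes 4 fell (22.2%, against 1.79% of all genes) and 0 rose. With the 10 arrays alone 3 fell, and the median change of the list was −0.23. MEST, an imprinted gene of growing tissue, had the largest change. The set used here, chosen for its level across both organs and the 3 ages, read 8.46, 8.26, 7.41, 8.07 and 8.0 at 10 weeks and 6.72, 5.93, 6.58, 6.33 and 6.72 in adults, and fell by 1.58 ± 0.18 log2, or 3.0-fold (adjusted p = 1.13e-04). Of 3 other MEST sets one, brighter in these kidney arrays, averaged 8.80 and 8.91, one 5.19 and 4.61 and one 4.74 and 4.79 at 10 weeks and in adults, so the probe sets disagree. NNAT, the imprinted proteolipid neuronatin, read 7.0, 7.43, 6.65, 6.99 and 6.64 at 10 weeks and 6.42, 5.96, 5.99, 6.21 and 5.73 in adults, and fell by 0.88 ± 0.14 log2, or 1.84-fold (adjusted p = 0.00237). A second NNAT set averaged 6.42 at 10 weeks and 6.42 in adults. PEG3, a zinc finger gene, fell by 0.92 ± 0.20 (adjusted p = 0.0181). IGF2R, the receptor that clears IGF2, was bright and changed little, from 13.15 to 12.86, and fell by 0.30 ± 0.07 (adjusted p = 0.0292). The calls of PEG3 (0.0647) and IGF2R (0.115) ended, at the adjusted p given, when only the 10 arrays were fitted, and adjusted p in the fit of all 30 arrays was above 0.05 for NNAT (0.296), PEG3 (0.225) and IGF2R (0.0695). Single arrays also decided calls, for PEG3 without 10-week arrays 7 or 9 (0.0506 to 0.0508), for IGF2R without 10-week arrays 7 or 9 or adult arrays AD-434 or AD-441 (0.0590 to 0.0796). Adjusted p was also above 0.05 for NNAT (0.0727) and PEG3 (0.117) with the mean of a gene's probe sets, for IGF2R (0.0841) with arrays centred on their medians.

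The insulin-like growth factors themselves gave no call. IGF2 read 9.58, 8.61, 9.46, 9.21 and 9.82 at 10 weeks and 8.78, 9.33, 7.92, 8.55 and 7.48 in adults, a change of −0.92 ± 0.29 with overlapping ages (adjusted p = 0.106). The adults ran from 7.48 in array AD-444 to 9.33 in array AD-434, and without adult array AD-434 or 10-week array 8 the change passed the threshold (adjusted p = 0.0276 and 0.0471). DLK1, CDKN1C and PLAGL1, imprinted as well, changed by −0.20, 0.05 and −0.18 (adjusted p = 0.562, 0.910 and 0.457). Of 23 measured genes of the IGF and growth hormone axis 3 fell (13%, against 1.79% of all genes) and 0 rose. The 3 were IGF2R, HTRA1 and IGF2BP3, and with the 10 arrays alone only HTRA1 fell. HTRA1, a secreted protease that cleaves IGF-binding proteins, fell by 0.48 ± 0.10 (adjusted p = 0.00921), and IGF2BP3, an RNA-binding protein of fetal tissue, fell by 0.98 ± 0.21 (adjusted p = 0.0163). IGF1, its receptor IGF1R, the growth hormone receptor GHR and the binding proteins IGFBP2, IGFBP3 and IGFBP5 had changes of −0.02, −0.16, −0.10, −0.63, −0.04 and 0.32, with adjusted p from 0.276 to 0.951. IGFBP2 in adult array AD-444 (10.37) was far below the other adults (11.95 to 12.28). IGF2BP1 changed by −0.08 (adjusted p = 0.835), and IGF2BP2 was not among the genes tested. In the fit of the 10 arrays alone the call of IGF2BP3 (0.0647) missed the threshold (adjusted p in brackets), and in the fit of all 30 arrays the calls of HTRA1 (0.124) and IGF2BP3 (0.10) missed it, at the adjusted p given.

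Growth factors and morphogens, 47 measured, fell in 5 and rose in 2 (4 and 2 with the 10 arrays alone), with a median change of −0.05. The shares, 10.6% and 4.26%, stand beside 1.79% and 1.49% of all genes. GPC3, a cell-surface glypican that restrains growth, read 10.86, 10.76, 10.86, 11.03 and 11.09 at 10 weeks and 10.57, 10.21, 10.23, 10.45 and 9.64 in adults, and fell by 0.70 ± 0.13 log2, or 1.63-fold (adjusted p = 0.00681). TGFB3, a transforming growth factor, fell by 0.78 ± 0.13 (adjusted p = 0.00278). PTN, the heparin-binding growth factor pleiotrophin, fell by 0.87 ± 0.19 (adjusted p = 0.0160), with 10-week array 11 at 9.47 inside the adult range. EGFR, the epidermal growth factor receptor, fell by 0.48 ± 0.10 (adjusted p = 0.0127), and EZH2, a histone methyltransferase of dividing progenitors, fell by 0.45 ± 0.11 (adjusted p = 0.0319). The 2 that rose are secreted antagonists of Wnt ligands. SFRP1 read 9.90, 10.41, 10.64, 10.40 and 10.25 at 10 weeks and 11.01, 10.72, 11.02, 11.25 and 10.99 in adults, and rose by 0.68 ± 0.13 log2, or 1.60-fold (adjusted p = 0.00794). SFRP2 rose by 0.87 ± 0.18 log2, or 1.82-fold (adjusted p = 0.0133), with all 5 10-week arrays between 6.50 and 6.85 and the adults from 7.19 to 8.24. Adjusted p was above 0.05 in the fit of only the 10 arrays for EZH2 (0.102), and fitting all 30 arrays ended the calls of TGFB3 (0.225), PTN (0.103), EGFR (0.166), EZH2 (0.334), SFRP1 (0.0783) and SFRP2 (0.212), with the adjusted p in brackets. Leaving out 1 array ended calls too, for EZH2 without 10-week arrays 7, 10 or 11 or adult arrays AD-432, AD-441, AD-442 or AD-444 (0.0530 to 0.0814). Further calls ended for EGFR (0.0839) with the mean of a gene's probe sets.

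Matrix genes of the stroma fell as well. Of 15 measured fibrillar and associated collagens 6 fell (40%, against 1.79% of all genes) and 0 rose. With the 10 arrays alone 4 fell, and the median change of the list was −0.37. The mean of the list ranged over arrays from 8.59 to 8.67 at 10 weeks and 8.07 to 8.33 in adults. COL3A1, the chain of type III collagen, read 12.23, 12.28, 12.10, 11.84 and 11.91 at 10 weeks and 10.77, 10.56, 10.80, 11.05 and 11.12 in adults. It fell by 1.21 ± 0.11 log2, or 2.31-fold (adjusted p = 2.11e-05), and a second probe set of COL3A1 averaged 10.65 and 9.36. COL5A2, a chain of type V collagen, read 9.94, 10.28, 9.86, 9.93 and 10.03 at 10 weeks and 8.80, 8.62, 8.92, 8.60 and 9.04 in adults, and fell by 1.21 ± 0.11 log2, or 2.32-fold (adjusted p = 2.11e-05). The chains of type I collagen, the main fibre of connective tissue, fell too. COL1A1 read 11.26, 10.90, 10.98, 11.56 and 11.57 at 10 weeks and 10.56, 10.55, 10.24, 9.73 and 10.12 in adults, and fell by 1.01 ± 0.17 log2, or 2.02-fold (adjusted p = 0.00237). COL1A2 read 11.99, 12.33, 11.95, 11.83 and 11.92 at 10 weeks and 11.26, 11.16, 11.26, 10.83 and 11.62 in adults, with array AD-444 the highest adult, and fell by 0.78 ± 0.12 log2, or 1.71-fold (adjusted p = 0.00202). A dimmer COL1A1 set averaged 6.62 and 6.31, and a COL1A2 set of similar brightness 11.16 and 10.76, with overlapping ages in both. Smaller changes were called for COL27A1 (−0.45) and COL6A1 (−0.46). The calls of COL27A1 (0.0958) and COL6A1 (0.10) ended, at the adjusted p given, when only the 10 arrays were fitted, and adjusted p in the fit of all 30 arrays was above 0.05 for COL27A1 (0.298) and COL6A1 (0.204). Single arrays also decided calls, for COL27A1 without 10-week arrays 9 or 11 (0.0547), for COL6A1 without 10-week arrays 7, 8 or 9 or adult arrays AD-432 or AD-434 (0.0598 to 0.0688). Adjusted p was also above 0.05 for COL27A1 (0.0522) and COL6A1 (0.371) with the mean of a gene's probe sets, for COL6A1 (0.0865) with arrays centred on their medians, for COL6A1 (0.0654) with repeated quantile normalization.

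Genes that fold and link collagen went in both directions, 3 lower and 2 higher of 21 measured (3 and 0 with the 10 arrays alone). The shares, 14.3% and 9.52%, stand beside 1.79% and 1.49% of all genes. SERPINH1, the collagen chaperone, read 11.19, 10.82, 10.83, 11.20 and 11.17 at 10 weeks and 10.37, 10.58, 10.54, 10.13 and 9.97 in adults, and fell by 0.73 ± 0.12 log2, or 1.66-fold (adjusted p = 0.00252). SPARC, a collagen-binding matrix protein, read 11.30, 11.53, 11.49, 11.45 and 11.19 at 10 weeks and 10.81, 10.41, 10.48, 10.54 and 10.33 in adults. Its adults lay far below the 10-week arrays, and SPARC fell by 0.88 ± 0.10 log2, or 1.84-fold (adjusted p = 1.04e-04). FKBP10, a prolyl isomerase that acts on procollagen, fell by 0.54 ± 0.11 (adjusted p = 0.00998). The enzyme LOX, which cross-links collagen and elastin, rose by 0.58 ± 0.13 (adjusted p = 0.0201), at a low level of 4.96 to 5.55, and PCOLCE2, an enhancer of procollagen processing, rose by 1.30 ± 0.29 (adjusted p = 0.0181). In the fit of the 10 arrays alone the calls of LOX (0.0698) and PCOLCE2 (0.0696) missed the threshold (adjusted p in brackets), and in the fit of all 30 arrays the calls of FKBP10 (0.376) and LOX (0.473) missed it, at the adjusted p given. Leaving out single arrays ended the call of LOX without 10-week array 7 (0.0563), of PCOLCE2 without 10-week arrays 7 or 9 (0.0514 to 0.0519). Other settings ended calls for LOX (0.0630) with array weights.

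Among 36 elastic fibre and matrix glycoprotein genes 4 fell and 1 rose (2 and 0 with the 10 arrays alone). These shares, 11.1% and 2.78%, stand beside 1.79% and 1.49% of all genes. Elastin (ELN) read 6.44, 6.33, 6.28, 6.73 and 6.61 at 10 weeks and 5.64, 5.62, 5.83, 5.21 and 5.84 in adults, and fell by 0.85 ± 0.13 log2, or 1.80-fold (adjusted p = 0.00144), whereas a second ELN set averaged 6.44 and 6.36. FBN1, the fibrillin of microfibrils, fell by 0.51 ± 0.09 (adjusted p = 0.00317). CNMD, chondromodulin, a glycoprotein of cartilage, read 8.47, 8.22, 10.20, 10.27 and 10.04 at 10 weeks and 7.87, 7.77, 7.93, 7.72 and 8.05 in adults. Arrays 7 and 8 were near the adults and arrays 9, 10 and 11 well above them, and CNMD fell by 1.58 ± 0.33 log2, or 2.98-fold (adjusted p = 0.0117). The proteoglycan BGN fell by 0.49 ± 0.11 (adjusted p = 0.0213) and FMOD, a proteoglycan that binds collagen fibrils, rose by 1.5 ± 0.34 (adjusted p = 0.0202). Of 12 basement membrane genes 3 fell (25%, against 1.79% of all genes) and 0 rose, and 2 fell with the 10 arrays alone. The list had a median change of −0.31 and array means of 9.21 to 9.41 at 10 weeks and 8.90 to 9.05 in adults. NID1, the nidogen that ties laminin to type IV collagen, read 9.72, 10.17, 9.98, 9.79 and 9.88 at 10 weeks and 8.78, 8.96, 9.45, 8.74 and 9.08 in adults, and fell by 0.90 ± 0.13 log2, or 1.87-fold (adjusted p = 6.97e-04). COL4A1, a chain of type IV collagen, fell by 0.57 ± 0.10 log2, or 1.49-fold (adjusted p = 0.00290), and a second set of it averaged 9.06 and 8.19. HSPG2, the heparan sulphate proteoglycan perlecan, fell by 0.39 ± 0.10 (adjusted p = 0.0421). Of 21 genes of matrix turnover only the urokinase gene PLAU was called (4.76%, against 1.49% of all genes), and it rose by 0.57 ± 0.12 (adjusted p = 0.0118). Adjusted p was above 0.05 in the fit of only the 10 arrays for CNMD (0.060), BGN (0.0886), FMOD (0.0805) and HSPG2 (0.0661), and fitting all 30 arrays ended the calls of ELN (0.0560), FBN1 (0.0902), FMOD (0.0754), HSPG2 (0.125) and PLAU (0.178), with the adjusted p in brackets. Leaving out 1 array ended calls too, for BGN without 10-week array 10 or adult array AD-432 (0.0550 to 0.0584), for FMOD without 10-week array 9 or adult array AD-432 (0.0504 to 0.0519), for HSPG2 without 10-week arrays 7, 8, 9, 10 or 11 or adult arrays AD-432, AD-434, AD-441, AD-442 or AD-444 (0.0532 to 0.0986). Further calls ended for HSPG2 (0.0729) with arrays centred on their medians, for HSPG2 (0.0705) with repeated quantile normalization, for HSPG2 (0.105) with array weights, for HSPG2 (0.0548) with trend and robust settings.

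**Figure D3:**
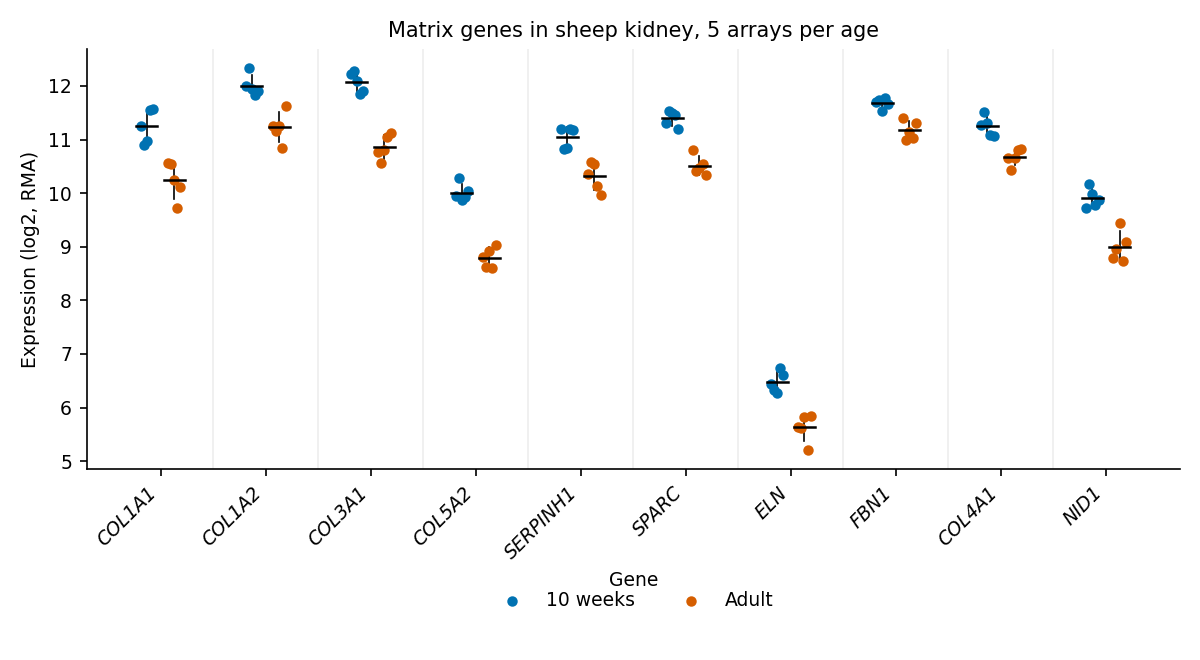
Log2 expression of 10 matrix genes in the 5 kidney arrays at 10 weeks (blue) and the 5 in adults (orange), with the mean (bar) and SD (line). For every gene drawn, all adult arrays lie below all 10-week arrays. The genes were picked from called ones, so this separation is not that of the lists. It held in 5 of 15 fibrillar collagens and 4 of 21 collagen processing genes. It also held in 6 of 36 elastic fibre and glycoprotein genes and 3 of 12 basement membrane genes. Of all genes 3.82% separated in either direction.

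Of 123 measured genes of the mature nephron segments 4 rose and 4 fell, 3.25% in each direction, against 1.49% and 1.79% of all genes. Of 40 proximal tubule genes 1 rose and 1 fell (2.5% each). Of 15 genes of the loop of Henle 0 were called, and of 10 distal and connecting tubule genes 1 rose (10%). Of 19 genes listed for principal cells 2 rose and 1 fell (10.5% and 5.26%), and of 14 intercalated cell genes 1 fell (7.14%). Of 13 podocyte genes 1 fell (HTRA1, 7.69%), and of 13 inner medulla and osmolyte genes 0 were called. The median changes of these lists ran from −0.09 in the proximal tubule to 0.10 in the distal tubule. The lists of the loop of Henle and the inner medulla also gave 0 with the 10 arrays alone, each gave 1 rise without adult array AD-444, and unadjusted p was under 0.05 in 2 and 3 of their genes by limma. No share of all genes at that unadjusted p was counted. UMOD changed by 0.26 ± 0.12 (adjusted p = 0.336) and the phosphate transporter SLC34A1 by −0.48 ± 0.22 (adjusted p = 0.317). AQP2 and KL were not among the genes tested.

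Channels and a water pore counted in the principal cell list were among the calls, though whole kidney RNA does not show in which segment a gene was read. KCNE1, the small subunit that joins the potassium channel KCNQ1 and slows its gating, read 9.06, 7.72, 8.26, 7.67 and 7.81 at 10 weeks and 10.50, 10.69, 10.05, 10.59 and 10.24 in adults. Every adult array was above every 10-week array, of which array 7 was the highest. KCNE1 rose by 2.31 ± 0.22 log2, or 4.95-fold (adjusted p = 2.11e-05). The pore subunit KCNQ1 had no call, at 8.07 and 8.13 (change 0.06 ± 0.09, adjusted p = 0.822). SCNN1A, the alpha subunit of the epithelial sodium channel of the collecting duct, read 8.91, 8.96, 8.81, 8.63 and 8.78 at 10 weeks and 9.39, 9.51, 9.42, 9.41 and 9.23 in adults, and rose by 0.57 ± 0.09 log2, or 1.49-fold (adjusted p = 0.00244). AQP3, the water channel of the basolateral side of principal cells, went the other way. It read 9.66, 9.84, 9.85, 10.09 and 9.62 at 10 weeks and 8.92, 8.84, 8.77, 8.87 and 8.35 in adults. AQP3 fell by 1.06 ± 0.13 log2, or 2.09-fold (adjusted p = 1.97e-04), with array AD-444 the lowest adult and the call kept without it. The choline transporter gene SLC44A4, named for its difference between organs, read 12.18, 11.98, 12.09, 12.13 and 11.64 at 10 weeks and 11.12, 11.38, 11.69, 11.27 and 10.83 in adults, and fell by 0.75 ± 0.14 log2, or 1.68-fold (adjusted p = 0.00640). Of 29 channel genes 2 rose, KCNE1 and SCNN1A, and 1 fell, KCNJ8 (6.9% and 3.45%, against 1.49% and 1.79% of all genes). KCNJ8, a subunit of ATP-sensitive potassium channels, fell by 0.82 ± 0.18 (adjusted p = 0.0160). The call of KCNJ8 (0.0589) ended, at the adjusted p given, when only the 10 arrays were fitted, and adjusted p in the fit of all 30 arrays was above 0.05 for KCNJ8 (0.203).

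In the proximal tubule list ACSM2B, a mitochondrial enzyme that activates medium-chain fatty acids, read 10.65, 10.44, 10.81, 10.78 and 10.84 at 10 weeks and 9.12, 7.80, 9.80, 9.52 and 9.43 in adults. The 10-week arrays were alike and the adults spread, with array AD-434 the lowest, and ACSM2B fell by 1.57 ± 0.29 log2, or 2.97-fold (adjusted p = 0.00612). A dimmer set of it averaged 8.98 and 8.0, with overlapping ages. ANPEP, the aminopeptidase of the brush border, rose by 0.73 ± 0.18 (adjusted p = 0.0372). PPP1R3C, which targets a phosphatase to glycogen, rose in the distal list by 0.42, and CA4, a membrane-bound carbonic anhydrase, fell by 0.33 in the intercalated cell list. In the fit of the 10 arrays alone the calls of ANPEP (0.119), PPP1R3C (0.0779) and CA4 (0.106) missed the threshold (adjusted p in brackets), and in the fit of all 30 arrays the calls of ANPEP (0.0699), PPP1R3C (0.238) and CA4 (0.430) missed it, at the adjusted p given. Leaving out single arrays ended the call of ANPEP without 10-week arrays 8, 9 or 11 or adult arrays AD-432, AD-434, AD-441 or AD-442 (0.0713 to 0.0917), of PPP1R3C without 10-week arrays 8, 10 or 11 or adult arrays AD-441 or AD-442 (0.0508 to 0.0671), of CA4 without 10-week arrays 7, 8, 9, 10 or 11 or adult arrays AD-432, AD-441, AD-442 or AD-444 (0.0514 to 0.0969). Other settings ended calls for PPP1R3C (0.352) with the mean of a gene's probe sets, for CA4 (0.0573) with arrays centred on their medians, for CA4 (0.0611) with array weights, for CA4 (0.0565) with trend and robust settings.

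Of 60 genes of xenobiotic metabolism and antioxidant defence 4 rose (6.67%, against 1.49% of all genes) and 0 fell, with a median change of 0.02. With the 10 arrays alone 3 rose and 1, ALDH6A1, fell. ADH4, an alcohol dehydrogenase that also oxidises retinol, read 6.05, 7.57, 6.57, 7.26 and 6.93 at 10 weeks and 8.96, 8.71, 8.85, 8.44 and 8.89 in adults. The ages did not overlap, and ADH4 rose by 1.89 ± 0.35 log2, or 3.71-fold (adjusted p = 0.00559). CYP2B6, a cytochrome P450 of drug metabolism, read 5.89, 6.27, 6.85, 7.63 and 5.73 at 10 weeks and 8.87, 7.07, 8.37, 8.12 and 8.40 in adults, and rose by 1.69 ± 0.34 log2, or 3.23-fold (adjusted p = 0.0101), with 10-week array 10 above adult array AD-434. CYP2D14, another P450, rose by 0.90 ± 0.19 log2, or 1.86-fold (adjusted p = 0.0147), and a second probe set of it averaged 8.72 and 9.86. AKR1C3, an aldo-keto reductase of steroids, read 5.43, 8.58, 7.87, 7.76 and 7.85 at 10 weeks and 9.02, 9.93, 8.18, 9.57 and 9.67 in adults. Array 7 was far below the other 10-week arrays, and AKR1C3 rose by 1.78 ± 0.44 log2, or 3.43-fold (adjusted p = 0.0351). Adjusted p was above 0.05 in the fit of only the 10 arrays for AKR1C3 (0.116). Leaving out 1 array ended calls too, for AKR1C3 without 10-week arrays 9 or 10 or adult arrays AD-432, AD-434, AD-442 or AD-444 (0.0507 to 0.0830).

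Enzymes of sterol synthesis were among the genes that rose. Of 26 measured 3 rose and 0 fell, also with the 10 arrays alone, and the share that rose, 11.5%, stands beside 1.49% of all genes. Of the 26 changes 1 was below zero, and the median was 0.25, against −0.01 over all genes. Without adult array AD-444, 5 rose. The mean of the list was 8.12 to 8.24 at 10 weeks and 8.35 to 8.56 in adults, without overlap. SQLE, the squalene epoxidase that starts the sterol branch, read 9.48, 9.20, 8.69, 8.66 and 8.95 at 10 weeks and 10.24, 10.39, 10.46, 10.31 and 10.01 in adults, and rose by 1.29 ± 0.15 log2, or 2.44-fold (adjusted p = 1.89e-04). CYP51A1, the lanosterol demethylase, read 9.85, 10.02, 9.85, 9.82 and 9.40 at 10 weeks and 10.29, 10.32, 10.48, 10.62 and 10.47 in adults, and rose by 0.65 ± 0.13 log2, or 1.57-fold (adjusted p = 0.0101). PMVK, the phosphomevalonate kinase, rose by 0.51 ± 0.09 (adjusted p = 0.00332). Other metabolic lists held calls too, those of amino acid and glucose metabolism and of oxidative phosphorylation at shares near those of all genes. BDH1, a ketone body dehydrogenase, rose by 0.76 ± 0.14 log2, or 1.69-fold (adjusted p = 0.00438), and the fatty acid ligase gene ACSL5 rose by 0.63 ± 0.15 (adjusted p = 0.0281). They are 2 of 36 genes of fatty acid oxidation (5.56%, against 1.49% of all genes). PKM, a pyruvate kinase, rose by 0.39 ± 0.09 (adjusted p = 0.0228), and GLDC, the glycine decarboxylase, fell by 0.47 ± 0.11 (adjusted p = 0.0286). They are the 2 called of 55 genes of amino acid and glucose metabolism (1.82% in each direction, against 1.49% and 1.79% of all genes). Of 72 oxidative phosphorylation genes NDUFA1 alone was called, with a change of 0.27 (1.39% of the list, against 1.49% of all genes). Of 61 ribosomal protein genes 0 were called by limma, with the 10 arrays too, and 0 had an unadjusted p under 0.05, for which the share of all genes was not counted. The calls of ACSL5 (0.0805), GLDC (0.0865) and NDUFA1 (0.143) ended, at the adjusted p given, when only the 10 arrays were fitted, and adjusted p in the fit of all 30 arrays was above 0.05 for PMVK (0.239), ACSL5 (0.339), PKM (0.340), GLDC (0.902) and NDUFA1 (0.134). Single arrays also decided calls, for ACSL5 without 10-week arrays 9 or 11 or adult arrays AD-434, AD-441 or AD-444 (0.0550 to 0.0648), for PKM without 10-week arrays 7 or 10 (0.0523 to 0.0562), for GLDC without 10-week arrays 9, 10 or 11 or adult arrays AD-434 or AD-442 (0.0538 to 0.0760), for NDUFA1 without 10-week arrays 7, 9, 10 or 11 or adult arrays AD-434, AD-441, AD-442 or AD-444 (0.0671 to 0.103). Adjusted p was also above 0.05 for GLDC (0.0573) with arrays centred on their medians, for PKM (0.0541) with array weights.

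The circadian repressors PER2 and BHLHE40 rose, the 2 called of 15 glucocorticoid-responsive and clock genes (13.3%, against 1.49% of all genes). PER2 read 6.41, 6.97, 7.44, 7.39 and 7.11 at 10 weeks and 7.82, 8.20, 8.02, 8.22 and 8.52 in adults, and rose by 1.09 ± 0.17 log2, or 2.13-fold (adjusted p = 0.00151), and a second set of it averaged 6.35 and 7.04. BHLHE40 read 10.08, 10.17, 10.29, 10.16 and 10.29 at 10 weeks and 10.87, 10.75, 11.32, 11.36 and 10.78 in adults, and rose by 0.82 ± 0.12 log2, or 1.76-fold (adjusted p = 0.00125). Of 32 stress and immediate early genes 2 rose (6.25%, against 1.49% of all genes), the transcription factors ATF3 and KLF4. ATF3 rose by 0.49 ± 0.10 (adjusted p = 0.00817) and KLF4 rose by 0.56 ± 0.11 (adjusted p = 0.00640). In the fit of all 30 arrays the calls of ATF3 (0.471) and KLF4 (0.319) missed the threshold, at the adjusted p given.

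**Figure D4:**
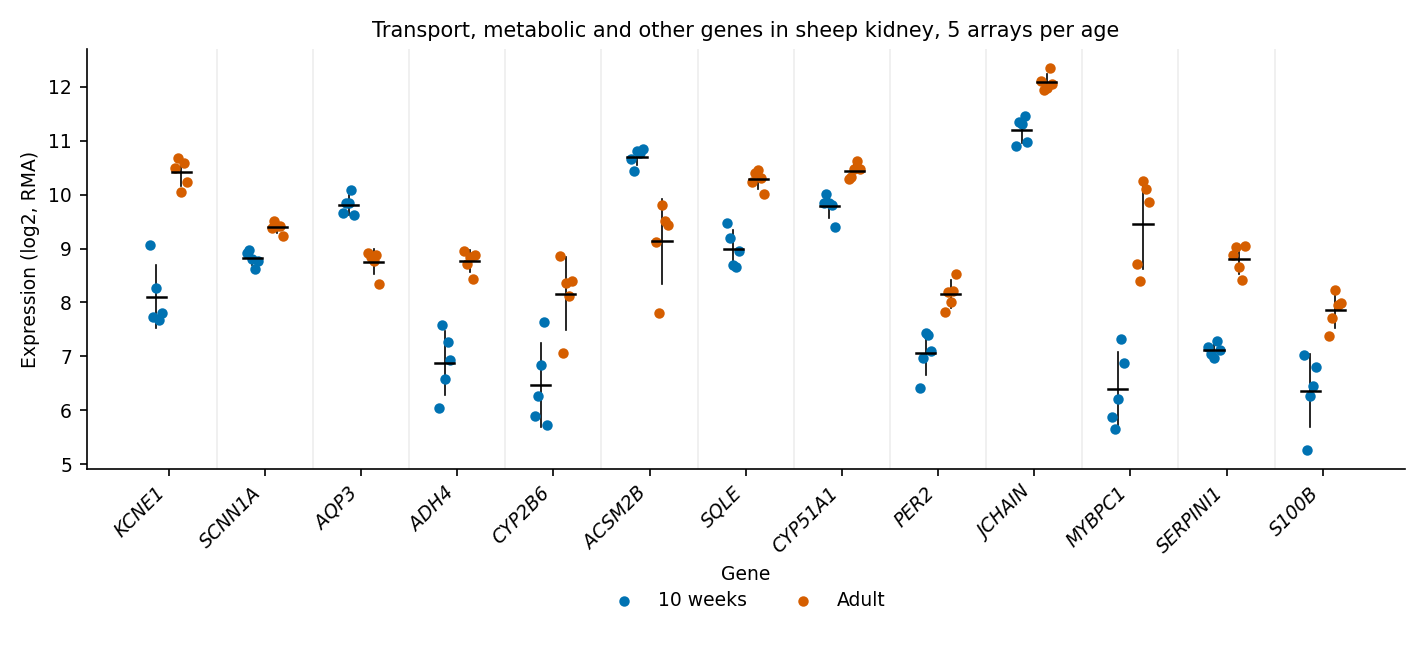
Log2 expression of 13 transport, metabolic, clock, immune and other genes in the 5 kidney arrays at 10 weeks (blue) and the 5 in adults (orange), with the mean (bar) and SD (line). AQP3 and ACSM2B are lower in adults and the other 11 genes higher, with overlapping arrays only for CYP2B6. The 13 genes were picked from called ones.

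Markers of immune cells were counted by cell type. Of 28 macrophage and monocyte genes 3 fell (10.7%, against 1.79% of all genes) and 0 rose (1 fell with the 10 arrays alone), with a median change of −0.25 and array means of 7.44 to 7.67 at 10 weeks and 7.24 to 7.49 in adults. CSF1R, the receptor of the macrophage growth factor, read 9.59, 9.18, 9.31, 9.87 and 9.88 at 10 weeks and 9.09, 9.06, 9.02, 8.91 and 9.11 in adults, and fell by 0.53 ± 0.13 (adjusted p = 0.0302). The integrin chain ITGB2 fell by 0.56 ± 0.12 (adjusted p = 0.0181) and the Fc receptor chain FCER1G fell by 0.47 ± 0.12 (adjusted p = 0.0431). Of 14 B and plasma cell genes 2 rose (14.3%, against 1.49% of all genes) and 0 fell. JCHAIN, which joins secreted antibodies, read 10.91, 11.34, 11.30, 11.45 and 10.98 at 10 weeks and 12.11, 11.94, 11.98, 12.34 and 12.05 in adults, and rose by 0.89 ± 0.12 log2, or 1.85-fold (adjusted p = 6.97e-04). IGHM, the heavy chain of IgM, read 8.34, 8.58, 8.67, 10.19 and 8.64 at 10 weeks and 9.78, 10.49, 9.72, 10.96 and 9.72 in adults, and rose by 1.25 ± 0.30 (adjusted p = 0.0312), with array 10 apart from the other 10-week arrays. The B cell genes MS4A1 and CD79A averaged 4.84 and 4.73, and 5.81 and 6.08, without a call. Of 25 T and NK cell genes CD3E alone rose (4%, against 1.49% of all genes), by 0.72 ± 0.17 (adjusted p = 0.0228). With the 10 arrays alone SH2D1A, a signalling adaptor of T and NK cells, was also called, at a change of −0.48 (adjusted p = 0.0357, and 0.122 with the 15 arrays). CCL19, a chemokine that draws T cells and dendritic cells, read 7.28, 7.29, 7.41, 7.43 and 7.52 at 10 weeks and 8.23, 8.83, 8.57, 8.74 and 7.88 in adults, and rose by 1.07 ± 0.16 log2, or 2.09-fold (adjusted p = 0.00139). JAML, an adhesion molecule of leukocytes, read 8.75, 8.63, 8.85, 8.87 and 8.71 at 10 weeks and 7.83, 7.85, 7.52, 7.47 and 8.22 in adults, and fell by 0.98 ± 0.12 log2, or 1.98-fold (adjusted p = 2.02e-04). Of 35 interferon response genes ISG15 alone was called (2.86%, against 1.79% of all genes), and it fell by 0.72 ± 0.16 (adjusted p = 0.0190). Of 31 complement and acute phase genes 1 rose (3.23%, against 1.49% of all genes), CP, ceruloplasmin, by 0.85 ± 0.21 (adjusted p = 0.0317). MHC class II (13 genes), endothelium (25), adipocyte (19), adrenal (16), red cell and platelet (12), neutrophil and mast cell (18) and nephron progenitor (15) lists gave 0 calls by limma in the fit of 15 arrays and in that of 10. Unadjusted p was under 0.05 in the 15-array fit for 2, 4, 3, 5, 2, 0 and 3 of their genes, in that order. The share of all genes at that unadjusted p was not counted. Adjusted p was above 0.05 in the fit of only the 10 arrays for CSF1R (0.0845), FCER1G (0.119), IGHM (0.104), ISG15 (0.0831) and CP (0.102), and fitting all 30 arrays ended the calls of CSF1R (0.127), ITGB2 (0.471), FCER1G (0.346), CCL19 (0.0712), ISG15 (0.393) and CP (0.510), with the adjusted p in brackets. Leaving out 1 array ended calls too, for CSF1R without 10-week arrays 7, 10 or 11 or adult arrays AD-441 or AD-442 (0.0626 to 0.0814), for ITGB2 without 10-week array 10 (0.0503), for FCER1G without 10-week arrays 7, 8, 10 or 11 or adult arrays AD-441, AD-442 or AD-444 (0.0504 to 0.109), for IGHM without 10-week arrays 7, 8, 9 or 11 or adult arrays AD-434 or AD-442 (0.0628 to 0.0835), for CD3E without 10-week arrays 9 or 10 or adult arrays AD-432 or AD-441 (0.0521 to 0.0605), for ISG15 without 10-week array 10 or adult array AD-442 (0.0525 to 0.0533), for CP without 10-week arrays 7, 8 or 9 or adult arrays AD-432, AD-441, AD-442 or AD-444 (0.0508 to 0.0824). Further calls ended for ITGB2 (0.0629), FCER1G (0.0841) and CD3E (0.0706) with array weights.

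Some of the largest rises carry names of other tissues. MYBPC1, a myosin-binding protein of slow skeletal muscle, read 5.87, 5.65, 6.21, 7.33 and 6.87 at 10 weeks and 8.71, 8.40, 10.24, 10.11 and 9.86 in adults. Arrays AD-441, AD-442 and AD-444 were the highest, and MYBPC1 rose by 3.08 ± 0.37 log2, or 8.44-fold (adjusted p = 1.89e-04). Its second probe set averaged 4.4 and 5.89. Of 25 skeletal muscle genes only MYBPC1 and the carbonic anhydrase CA3 rose (8%, against 1.49% of all genes). CA3 rose by 0.58 at a low level (3.99 to 4.57), and the other 23 members had no call. The muscle actin ACTA1 averaged 5.96 and 6.16, the myosin chains MYH1 and MYL1 4.84 and 4.87, 3.75 and 3.85, and the bright MYH7 11.76 and 11.69, and the list mean was 5.85 to 6.19 at 10 weeks and 6.10 to 6.23 in adults. The part of muscle in this result was not tested. Of 16 nerve and Schwann cell genes 4 rose and 1 fell (25% and 6.25%, against 1.49% and 1.79% of all genes), and 2 and 1 with the 10 arrays alone. The list had a median of 0.16 and array means of 6.53 to 6.78 at 10 weeks and 6.93 to 7.09 in adults. SERPINI1, the protease inhibitor neuroserpin, read 7.18, 7.04, 6.98, 7.28 and 7.11 at 10 weeks and 8.88, 9.02, 8.66, 8.41 and 9.04 in adults. The adult arrays stood well clear of the 10-week arrays, and SERPINI1 rose by 1.69 ± 0.14 log2, or 3.22-fold (adjusted p = 9.61e-06), the smallest adjusted p of the genes named. S100B, a calcium-binding protein of Schwann cells and glia, read 7.02, 5.27, 6.26, 6.45 and 6.79 at 10 weeks and 7.37, 7.72, 8.22, 7.95 and 7.99 in adults, and rose by 1.49 ± 0.24 log2, or 2.81-fold (adjusted p = 0.00234). The neuronal tubulin-binding gene STMN2 rose by 1.42 ± 0.31 (adjusted p = 0.0181) and the neurofilament gene NEFM rose by 0.85 ± 0.18 (adjusted p = 0.0158), whereas SNAP25, of vesicle fusion, fell by 0.88 ± 0.15 (adjusted p = 0.00356). The Schwann cell genes SOX10 and ERBB3 averaged 6.39 and 6.33, and 4.77 and 4.78, and the part of nerve in these changes was not tested. UPK1B, a uroplakin of the urothelium, rose by 1.28 ± 0.29 (adjusted p = 0.0219) from a low level of 4.68, 1 of 10 urothelium genes (10%, against 1.49% of all genes). In the list of fibroblast and mesangial genes, 25 measured, 1 rose and 1 fell (4% each, against 1.49% and 1.79% of all genes). DPT, the matrix protein dermatopontin, rose by 1.24 ± 0.20 log2, or 2.36-fold (adjusted p = 0.00202), and MCAM, a pericyte adhesion molecule, fell by 0.45 ± 0.10 (adjusted p = 0.0201). The calls of STMN2 (0.0724), NEFM (0.0670) and MCAM (0.0639) ended, at the adjusted p given, when only the 10 arrays were fitted, and adjusted p in the fit of all 30 arrays was above 0.05 for STMN2 (0.116), UPK1B (0.060) and MCAM (0.340). Single arrays also decided calls, for UPK1B without 10-week array 7 (0.0580), for MCAM without 10-week arrays 7 or 10 (0.0516 to 0.0552).

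The remaining genes among the 15 largest rises without overlap were the RNA helicase gene DDX25, the ADP-ribosyltransferase gene PARP8, the cytokine receptor gene IL20RA, the transmembrane collagen gene COL13A1 and LRFN5, a synaptic adhesion gene. DDX25 read 5.86, 6.47, 5.83, 6.38 and 6.34 at 10 weeks and 7.78, 7.62, 7.32, 6.94 and 7.35 in adults, and rose by 1.23 ± 0.15 log2, or 2.34-fold (adjusted p = 2.02e-04). IL20RA read 4.72, 4.64, 4.69, 4.90 and 5.15 at 10 weeks and 5.90, 5.92, 5.91, 6.12 and 5.78 in adults, and rose by 1.11 ± 0.12 log2, or 2.16-fold (adjusted p = 1.04e-04). PARP8 rose by 1.11 ± 0.17 log2, or 2.16-fold (adjusted p = 0.00139), COL13A1 rose by 1.05 ± 0.13 log2, or 2.07-fold (adjusted p = 1.97e-04), and LRFN5 rose by 1.02 ± 0.23 log2, or 2.03-fold (adjusted p = 0.0181). SPADH1, a gene of the spermadhesin family and among the 15 largest falls, read 8.12, 7.41, 7.41, 7.31 and 7.84 at 10 weeks and 5.99, 6.27, 6.4, 5.64 and 6.87 in adults, and fell by 1.38 ± 0.20 log2, or 2.61-fold (adjusted p = 8.82e-04). Genes named for their difference between organs included CFP, the complement factor properdin, GAS2, a growth arrest gene of the cytoskeleton, the transcription factor gene TOX2, the serpin gene SERPINA14 and ANKRD1, a stress-responsive muscle cofactor. CFP read 6.63, 6.45, 6.53, 6.62 and 6.66 at 10 weeks and 5.87, 5.85, 5.98, 5.96 and 6.39 in adults, and fell by 0.57 ± 0.10 (adjusted p = 0.00511). GAS2 rose by 0.80 ± 0.16 (adjusted p = 0.0103), TOX2 rose by 0.86 ± 0.16 (adjusted p = 0.00681) and ANKRD1 rose by 0.75 ± 0.19 (adjusted p = 0.0416). SERPINA14 read 9.43, 10.24, 7.81, 7.53 and 9.61 at 10 weeks and 10.04, 10.53, 11.25, 10.99 and 10.96 in adults, and rose by 1.83 ± 0.41 log2, or 3.56-fold (adjusted p = 0.0202). In the fit of the 10 arrays alone the calls of LRFN5 (0.0647), SERPINA14 (0.0805) and ANKRD1 (0.0854) missed the threshold (adjusted p in brackets), and in the fit of all 30 arrays the calls of CFP (0.295), GAS2 (0.0699), TOX2 (0.0943) and ANKRD1 (0.243) missed it, at the adjusted p given. Leaving out single arrays ended the call of LRFN5 without 10-week array 7 (0.0511), of SERPINA14 without 10-week array 9 or adult array AD-441 (0.0521 to 0.0539), of ANKRD1 without 10-week arrays 7, 8, 9 or 11 or adult arrays AD-432, AD-441, AD-442 or AD-444 (0.0542 to 0.10).

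Whether the kidney changed differently from the lung over the same interval was tested as an interaction over all 30 arrays. The change differed in 199 genes (2.17%), and 41 of these were among the 300 called in kidney, 20 that rose there and 21 that fell. In 32 of the 41 the lung change had the opposite sign, very small changes included, such as that of KCNE1 (−0.01). Choosing genes by a kidney call together with an organ difference favours opposite signs, so this count is not a separate result. With the replicate number as a block, 332 genes differed, the 199 among them. Of the 164 genes that fell in kidney 70.7% were also below zero in lung, against 44.8% of all genes below zero in kidney, and of the 136 that rose 67.6% were above zero in lung, against 59.6% of all. KCNE1 was low in lung at both ages (5.53 and 5.52), and the kidney change minus the lung change was 2.32 ± 0.27 (adjusted p = 6.84e-06). MYBPC1 averaged 5.59 and 5.89 in lung, a difference of 2.78 ± 0.44 (adjusted p = 4.85e-04). SQLE was bright in lung at both ages (11.16 and 11.17), with a difference of 1.27 ± 0.23 (adjusted p = 0.00196). AQP3 was higher in adult lung than at 10 weeks (7.70 and 8.51), with a difference of −1.87 ± 0.19 (adjusted p = 5.36e-07).

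Cell division genes had a median change of −0.24 in lung, against −0.53 in kidney. Only CCNB2 among the 54 differed between organs, by −1.27 ± 0.33 (adjusted p = 0.0384), a share near the 2.17% of all genes. The fibrillar collagens had nearly equal medians, −0.38 in lung and −0.37 in kidney. COL5A2 alone of the 15 differed, by −0.84 ± 0.20 (adjusted p = 0.0224), against 2.17% of all genes. COL1A1 changed by −1.04 in lung and −1.01 in kidney. The imprinted list had a median of −0.57 in lung and −0.23 in kidney, and 5 of its 18 genes differed, against 2.17% of all genes. DLK1, a membrane protein related to Notch ligands, averaged 9.92 at 10 weeks and 6.30 in adult lung but 12.33 and 12.14 in kidney, a difference of 3.42 ± 0.35 (adjusted p = 5.36e-07). The stress factor ATF3 and the interferon gene ISG15 averaged 9.20 and 11.41, and 8.09 and 9.23, in 10-week and adult lung, with differences of −1.72 ± 0.33 (adjusted p = 0.00411) and −1.87 ± 0.44 (adjusted p = 0.0179). The organ difference of single genes was not refitted with arrays left out.

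**Figure D5:**
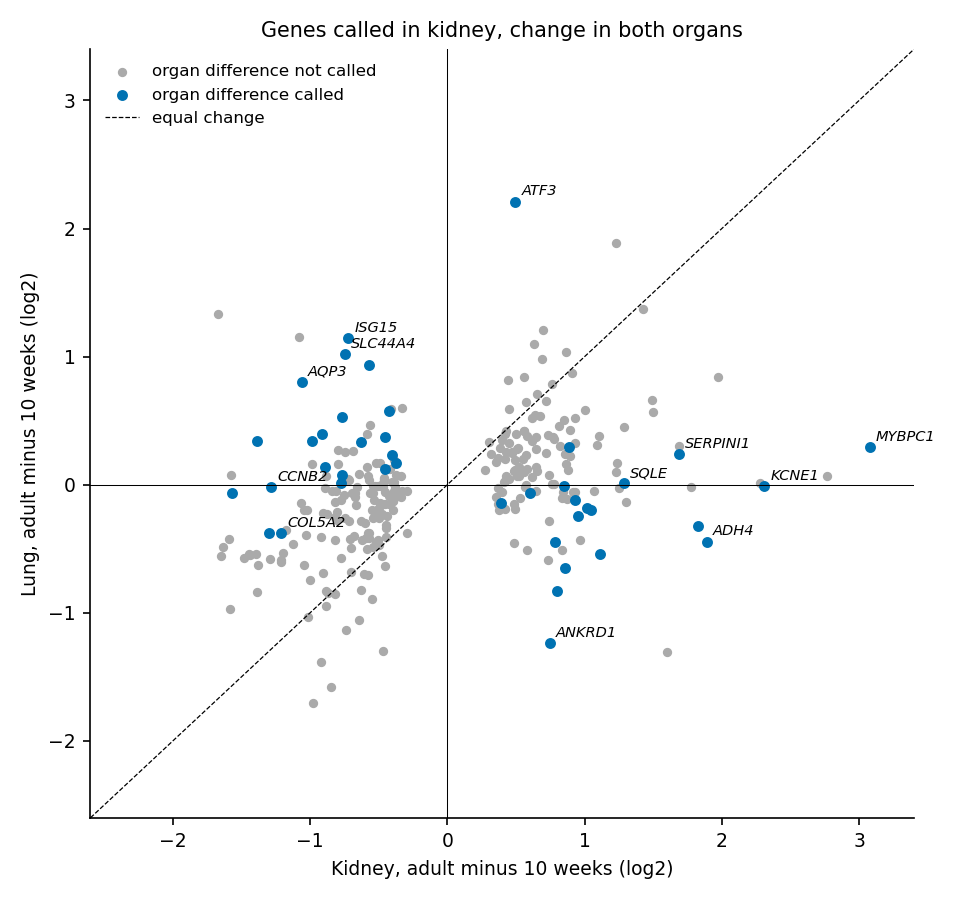
Change from 10 weeks to adulthood (log2) in kidney (x axis) and lung (y axis) of the 300 genes called in kidney. Blue points are the 41 genes whose change differed between organs, and the dashed line marks equal change. MYBPC1 and KCNE1 lie far right with lung changes of 0.30 and −0.01, and AQP3 lies lower in kidney and higher in lung.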

How the data were processed

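Total RNA of frozen kidney and lung was hybridised as biotin-labelled cRNA to an Affymetrix bovine array. The deposited values are log2 signals, made by the authors with RMA and Partek per the submitters' processing notes, whose versions are not given in the sources used here. Of 24128 probe sets 112 were controls, 13292 had 1 symbol, 86 several and 10638 are not named in the annotation table used here. They gave 9155 genes. Every column was mapped to a sample.

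Adult minus 10-week kidney was tested with limma 3.58.1 in R 4.3.3 (lmFit and eBayes, two-sided) on the 15 kidney arrays, with Benjamini-Hochberg adjustment over the 9155 genes and a threshold of 0.05. The script was tested on simulated data. The organ difference is the interaction in a fit of 30 arrays. Of the numbers in the titles, 4 are shared by kidney and lung at 10 weeks and 3 at fetal day 90. The deviations of those arrays from their group means correlated by 0.1006 to 0.2042 at 10 weeks and 0.0761 to 0.2499 at fetal day 90. The replicate block was therefore fitted as an alternative, and the organ differences of single genes are from the fit without it. Kidney arrays of the 2 ages share 0 numbers. Where nothing says that samples are separate animals, p-values measure only the spread between samples.

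Members and lists were chosen with earlier results of these data known. Named genes are the 15 largest rises and 15 largest falls without overlap of the ages, the called members of each list (up to 6 with full values), a set of growth, kidney and division genes whatever their call, and the 8 largest organ differences in each direction among genes called in kidney. Alternatives changed the arrays fitted, the filter, the probe sets, the normalization and the weights, and left out each array. No sequences or coordinates were used. The number of arrays limits the precision.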

Additional observations from a re-analysis of the deposited data

Results flagged for a closer look

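In 11 groups of 5 arrays of a named gene, 1 array stood apart by Dixon's test (gap over range above 0.71), out of 238 groups tested, and chance alone gives about 1 in 20. Adult array AD-444 was the one apart in 6 of them. STMN1 read 10.79 in array AD-444, against 10.26 to 10.40 in the other 4, LRFN5 read 6.79 in array AD-444, against 5.36 to 5.75 in the other 4, and CFP read 6.39 in array AD-444, against 5.85 to 5.98 in the other 4. AQP3 read 8.35 in array AD-444, against 8.77 to 8.92 in the other 4, ANPEP read 10.12 in array AD-444, against 10.74 to 10.85 in the other 4, and IGFBP2 read 10.37 in array AD-444, against 11.95 to 12.28 in the other 4. Its low median signal and low oxidative phosphorylation mean are given with the results, and their part in these values was not tested. COL27A1 read 9.85 in adult array AD-441, against 10.26 to 10.39 in the other 4. At 10 weeks AKR1C3 read 5.43 in 10-week array 7, against 7.76 to 8.58 in the other 4, and IGF1R read 6.23 in 10-week array 8, against 6.97 to 7.16 in the other 4. IGHM read 10.19 in 10-week array 10, against 8.34 to 8.67 in the other 4, and SFRP2 read 6.50 in 10-week array 10, against 6.81 to 6.85 in the other 4.

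The change from 10 weeks to adulthood differed between kidney and lung in 27 named genes by the interaction test of limma over 30 arrays, and all 27 also passed with the replicate block. Of all genes 2.17% differed, and the rule for named genes took in the largest organ differences among genes called in kidney. The value given is the kidney change minus the lung change, in log2. It was above zero for DLK1 (3.42), MYBPC1 (2.78), ADH4 (2.34), KCNE1 (2.32), SERPINA14 (2.15), ANKRD1 (1.98), PARP8 (1.65), GAS2 (1.63), TOX2 (1.5), SERPINI1 (1.45), SQLE (1.27), COL13A1 (1.25), LRFN5 (1.2), NEFM (0.86), JCHAIN (0.60) and CDKN1C (0.59). It was below zero for ISG15 (−1.87), AQP3 (−1.87), SLC44A4 (−1.76), SPADH1 (−1.73), ATF3 (−1.72), ACSM2B (−1.51), CFP (−1.51), JAML (−1.33), CCNB2 (−1.27), STMN1 (−0.92) and COL5A2 (−0.84). ATF3 rose in kidney by 0.49, yet its value is below zero, since the lung mean went from 9.20 to 11.41. CDKN1C, an inhibitor of the cell cycle, and DLK1 had no call in kidney.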

How the results depend on the processing

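With only the 10 arrays compared, 73 genes rose, 85 fell and 1 replication gene fell. With all 30 arrays the counts were 63 and 74, and with all 30 arrays and the replicate block 66 and 76. The fetal kidney arrays varied less than those compared, and the counts of the 10 arrays are the ones free of them. Leaving out 1 of the 10 arrays gave 89 (without 10-week array 9) to 133 rises, 119 to 179 falls, 1 to 3 falls of replication genes, 17 to 22 of mitotic genes, 4 to 7 of fibrillar collagens and 3 to 4 of collagen processing genes. The organ difference was called in 332 genes with the replicate block, against 199, and in 133 to 238 when 1 of 20 arrays was left out. In kidney, adult and 10-week arrays share no number, so the block acts only through the lung arrays and the shared correlation of 0.218. Filtering the dimmest 25% of genes, other choices of probe set, repeated quantile normalization, trend and robust settings and array weights kept the counts of rises and falls within 1.5 times. Centring arrays on their medians moved the share of rises among calls from 45.3% to 54.9%. Of 105 named called genes, 49 passed in all 20 alternatives and 56 missed the threshold in at least 1. No named change with a call was reversed in any of them. The number of arrays limits the precision, and probes made for cattle can read sheep RNA weakly.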

Other observations

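The genes here were chosen after their values were seen, from the 300 called. Several encode proteins that liver secretes or carries. LECT2, a secreted chemotactic factor, read 7.91, 7.96, 5.10, 4.88 and 4.30 at 10 weeks and 8.98, 9.17, 8.62, 9.25 and 7.94 in adults, and rose by 2.76 ± 0.58 (adjusted p = 0.0138, and 0.0647 with the 10 arrays alone). APOC3, an apolipoprotein, read 7.79, 6.72, 6.71, 8.69 and 7.44 at 10 weeks and 8.92, 9.29, 9.78, 9.14 and 8.22 in adults, and rose by 1.60 ± 0.41 (adjusted p = 0.0398, and 0.0512 with the 10 arrays alone). AFP, the fetal serum protein alpha-fetoprotein, read 7.14, 8.83, 7.76, 7.96 and 6.72 at 10 weeks and 5.67, 7.28, 5.63, 6.23 and 5.25 in adults, and fell by 1.67 ± 0.36 (adjusted p = 0.0171, and 0.0711 with the 10 arrays alone). ASGR1, a subunit of the asialoglycoprotein receptor, fell by 1.08 ± 0.16 (adjusted p = 9.14e-04, and 0.00957 with the 10 arrays alone). The first 2 were higher in adults and the last 2 lower.

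Some vessel and matrix genes outside the lists fell. ANGPT1, the ligand that stabilises vessels, fell by 0.63 ± 0.13 (adjusted p = 0.0116, and 0.0502 with the 10 arrays alone). APLNR, the apelin receptor of endothelium, fell by 0.61 ± 0.15 (adjusted p = 0.0300, and 0.104 with the 10 arrays alone), and SPARCL1, a relative of SPARC, fell by 0.62 ± 0.13 (adjusted p = 0.0116, and 0.0330 with the 10 arrays alone). FREM1, a basement membrane protein of epithelia, read 6.85, 6.29, 6.46, 6.62 and 7.0 at 10 weeks and 5.67, 5.60, 5.76, 5.24 and 5.84 in adults, and fell by 1.02 ± 0.15 (adjusted p = 0.00125, and 0.00597 with the 10 arrays alone). Chemokines and cytokines went both ways. CCL21, which shares a receptor with CCL19, fell by 0.71 ± 0.17 (adjusted p = 0.0240, and 0.0705 with the 10 arrays alone), whereas the interleukin genes IL15 and IL18 rose by 0.51 ± 0.09 (adjusted p = 0.00356, and 0.0271 with the 10 arrays alone) and 0.60 ± 0.12 (adjusted p = 0.00808, and 0.0473 with the 10 arrays alone). MYL4, a myosin light chain of atrium and embryonic muscle, read 8.48, 8.67, 7.33, 6.44 and 8.49 at 10 weeks and 8.40, 9.85, 11.53, 11.98 and 9.06 in adults, and rose by 2.28 ± 0.59 (adjusted p = 0.0426, and 0.125 with the 10 arrays alone). CDO1, which oxidises cysteine, read 6.39, 8.08, 6.95, 7.10 and 7.08 at 10 weeks and 8.88, 8.0, 9.79, 9.67 and 9.12 in adults, and rose by 1.97 ± 0.30 (adjusted p = 0.00139, and 0.0137 with the 10 arrays alone). The water channel gene AQP11 rose by 0.88 ± 0.16 (adjusted p = 0.00474, and 0.0130 with the 10 arrays alone), and the glutamine transporter gene SLC38A3 fell by 1.05 ± 0.17 (adjusted p = 0.00237, and 0.0187 with the 10 arrays alone). With all 30 arrays the calls of FREM1, IL15, IL18, MYL4 and CDO1 held and those of the other 10 genes ended (adjusted p = 0.132 to 0.590). Leaving out single arrays ended 4 of these calls, those of APLNR (10-week arrays 7, 9, 10 or 11 or adult arrays AD-441 or AD-444, adjusted p = 0.0519 to 0.0771), APOC3 (10-week arrays 7, 8, 9 or 11 or adult arrays AD-432, AD-434, AD-441 or AD-442, 0.0577 to 0.102), CCL21 (10-week arrays 9 or 10 or adult arrays AD-441, AD-442 or AD-444, 0.0546 to 0.0680) and MYL4 (10-week arrays 7, 9, 10 or 11 or adult arrays AD-434, AD-441 or AD-442, 0.0531 to 0.116).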
